A study of Mus musculus with 6 samples.

Results

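The fibrillar, filament-forming and fibril-surface collagens of bone and fibrous tissue were described in the proximal tibial epiphysis of Longshanks and Control mice. They are 10 genes, taken by gene symbol from the 47729 genes of the deposited table. *Col1a1* and *Col1a2* encode the chains of type I collagen, *Col3a1*, *Col5a1* and *Col5a2* those of types III and V, *Col6a1*, *Col6a2* and *Col6a3* those of type VI, and *Col12a1* and *Col14a1* those of types XII and XIV. All 10 reached a mean of at least 20 reads per library and were tested, among 19308 genes in all.

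RNA was sequenced from 3 Control mice and 3 mice of Longshanks line 1 (LS1), all 14 days old and from different families of the same generation. LS1 had been selectively bred for tibia length relative to body mass, Control (ICR) was bred at random, and neither group was treated. Each library came from 1 mouse whose left and right epiphyses were pooled, and LS1 is a single selected line. The piece sampled held growth plate, articular cartilage, secondary ossification center, metaphysis and marrow. The labels did not give the sex of the mice.

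Type I collagen is the main fibril of bone, tendon and skin. Its trimers, in which *Col1a1* chains outnumber *Col1a2* chains, are secreted as procollagen and assemble into fibrils once their ends are cut off. Type V collagen starts and limits these fibrils, type III joins them in distensible and young connective tissue, type VI forms beaded filaments around cells, and types XII and XIV lie on the fibril surface. In a growing bone the type I fibrils are laid down by osteoblasts below the cartilage, which is itself built on type II collagen.

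The sequence trait described here is the repeat that makes a collagen helix, a glycine at the start of every run of 3 amino acids. It is a trait of collagens in general and was counted in the 10 genes only. In the coding sequence the repeat appears as a codon beginning with GG, the glycine codon, at the start of each triplet of codons. The longest unbroken repeat was counted in the longest coding transcript of GENCODE M21 on GRCm38. It held 338 triplets in *Col1a1*, 339 in *Col1a2*, 344 in *Col3a1*, 338 in *Col5a1* and 339 in *Col5a2*. It was 87 triplets long in *Col6a1* and in *Col6a2*, 45 in *Col6a3*, and 32 in *Col12a1* and in *Col14a1*. This longest run filled 55.2% to 74.1% of the codons in the genes of types I, III and V. In the other 5 genes it filled 3.13% to 25.5%. Stretches of the repeat outside the longest run were not counted, so the whole repeat of a gene can be longer. Every exon lying wholly inside the longest run was a multiple of 9 bases long, in each of the 10 genes. In *Col1a1* there were 41 such exons, 21 of them with 54 bases, and in *Col12a1* there were 5. The first 72 bases of the longest run are shown for 5 genes. These were chosen to show how alike the repeat is in the abundant type I chains, type III, a filament chain and a fibril-surface chain. Capitals mark the glycine codon that opens each triplet (other glycine codons, as in *Col3a1*, are left in lower case):

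Col1a1: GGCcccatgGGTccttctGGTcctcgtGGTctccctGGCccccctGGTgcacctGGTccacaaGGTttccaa

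Col1a2: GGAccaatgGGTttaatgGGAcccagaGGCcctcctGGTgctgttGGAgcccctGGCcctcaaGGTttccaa

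Col3a1: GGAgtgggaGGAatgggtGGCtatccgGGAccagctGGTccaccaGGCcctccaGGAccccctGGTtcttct

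Col6a1: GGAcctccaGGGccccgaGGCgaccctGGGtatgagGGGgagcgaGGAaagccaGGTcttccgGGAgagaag

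Col12a1: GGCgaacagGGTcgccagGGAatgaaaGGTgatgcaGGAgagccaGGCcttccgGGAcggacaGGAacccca

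These stretches are coding sequence on GRCm38, spliced across introns. That of *Col1a1* runs from exon 6 to exon 8 of 51 (chr11:94939451-94939921, plus strand), and that of *Col1a2* from exon 6 to exon 8 of 52 (chr6:4512406-4515498, plus strand). That of *Col3a1* lies in exons 5 and 6 of 51 (chr1:45323762-45325395, plus strand). Those of *Col6a1* (exons 8 and 9 of 35, chr10:76719641-76720996) and *Col12a1* (exons 56 to 58 of 66, chr9:79612441-79613769) are on the minus strand. *Col3a1* and *Col5a2* are neighbours on chromosome 1 that point toward each other with 24.6 kb between them, and *Col6a2* and *Col6a1* follow each other on chromosome 10 with 85.2 kb between them.

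Values are given as normalized read counts, the reads of a gene divided by the size factor that the authors used for its library. Levels of the collagen genes were compared with each other per kilobase of the longest coding transcript, and their order depends on that choice of length. On this per-length scale *Col1a2* was the most abundant of the 10 genes in Control (610157 ± 45891 per kb, SD, n = 3), followed by *Col1a1* (367857 ± 45853). *Col5a2* (27799 ± 1862) and *Col3a1* (24862 ± 3016) came next and overlapped between libraries. *Col6a1* (11081 ± 733), *Col6a2* (7320 ± 710), *Col12a1* (5798 ± 172), *Col5a1* (5741 ± 487) and *Col6a3* (4860 ± 174) followed, of which *Col12a1* and *Col5a1* overlapped. *Col14a1* was far below the others (251 ± 74.6). Apart from these overlapping neighbours, the Control libraries of each gene lay above all those of the next gene in the order. By rank of counts without correction for length, which favours long transcripts, *Col1a2* and *Col1a1* had the most and the second most reads of all genes in the table over the 6 libraries, and *Col2a1*, the chain of cartilage type II collagen, ranked 4.

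The ratio between chains of 1 type also differed from gene to gene. *Col1a2* exceeded *Col1a1* per kb in 6 of 6 libraries, by 1.502 to 1.80 times. *Col5a2* exceeded *Col5a1* by 4.44 to 6.01 times, and *Col6a1* exceeded *Col6a2* by 1.39 to 1.71 times and *Col6a3* by 1.91 to 3.02 times. These ratios rest on the transcript model and on how the authors counted reads, and base composition differed as well (the coding sequence of *Col1a1* had a GC content of 63.0% and that of *Col1a2* 59.5%). The part of these factors in the ratios was not tested. All annotated exons together cover 12426 bases in *Col1a2* and 6563 in *Col1a1*, against 5348 and 5930 in the chosen transcripts. Per kb of all annotated exons *Col1a1* would lie above *Col1a2*.

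**Figure D1:**
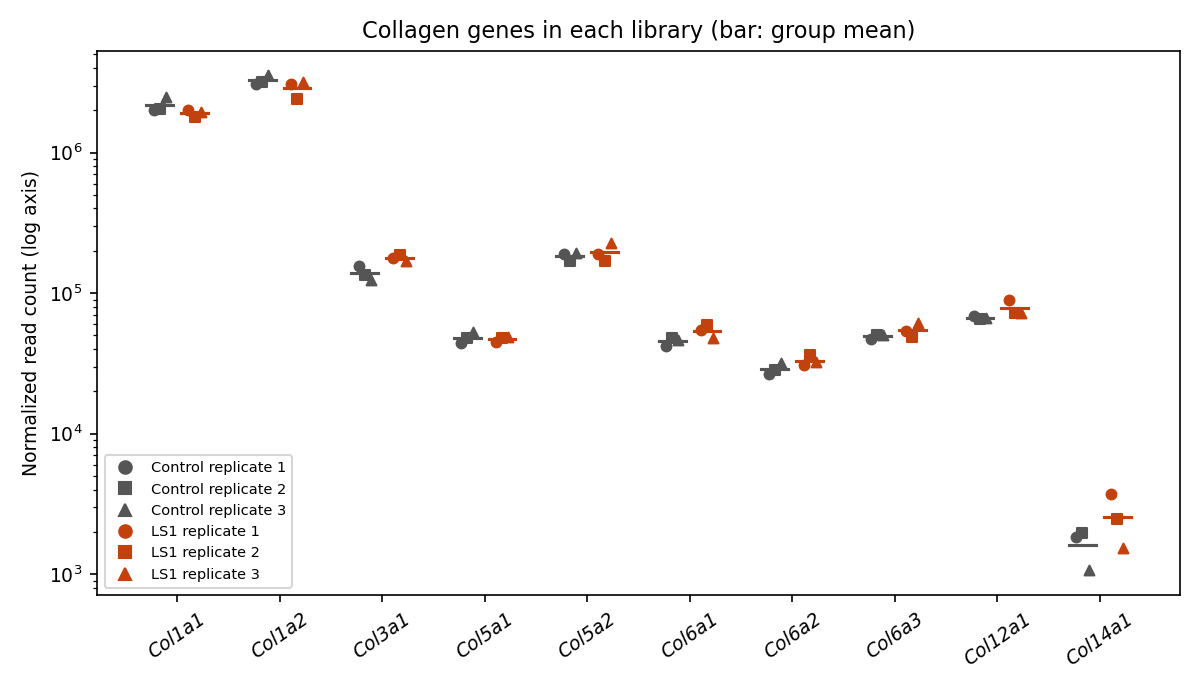
Normalized read count of the 10 collagen genes (log axis) in each of 3 Control and 3 LS1 libraries, with a bar at each group mean. *Col1a1* and *Col1a2* lie at or above 1778579 in every library, and *Col14a1* lies between 1067 and 3700.

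Bulk libraries of this kind cannot tell apart a smaller number of cells of a type and less RNA per cell. The libraries held 68803249 to 76581954 reads in Control and 82227711 to 88745366 in LS1, so every LS1 library was deeper. LS1 replicate 3 stood nearer to Control than the other LS1 libraries on the first principal component (-4.29, against 43.7 and 50.1 in LS1 and -41.5 to -22.1 in Control). None of the markers listed for bone, cartilage, tendon, muscle, vessel or marrow cells was at 0 in all libraries. Over all genes tested, limma called 0.0725% at an adjusted p-value under 0.05.

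Against Control, limma called 0 of the 10 collagen genes in LS1 at the adjusted threshold. At an unadjusted p of 0.05, 1 of the 10 passed, *Col3a1*, against 12.9% of all genes tested. That gene was higher in LS1, as were 7.08% of all genes at this threshold, while 0 of the 10 and 5.86% of all genes were lower. DESeq2 on the recovered reads also called 0 of the 10 (2.38% of all genes), with 2 at an unadjusted p-value under 0.05, *Col3a1* and *Col14a1*. edgeR called 0 as well (0.0363% of all genes), with *Col3a1* alone under the unadjusted threshold. The log2 fold change was above 0 in 7 of the 10 genes, against 50.7% of all genes, with a median of 0.17 against 0.0054 over all genes tested. LS1 and Control libraries did not overlap in 3 of the 10 genes, against 19.2% of all genes. LS1 lay wholly above Control in 2 of them (10.3% of all genes) and wholly below in 1 (8.94% of all genes).

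**Figure D2:**
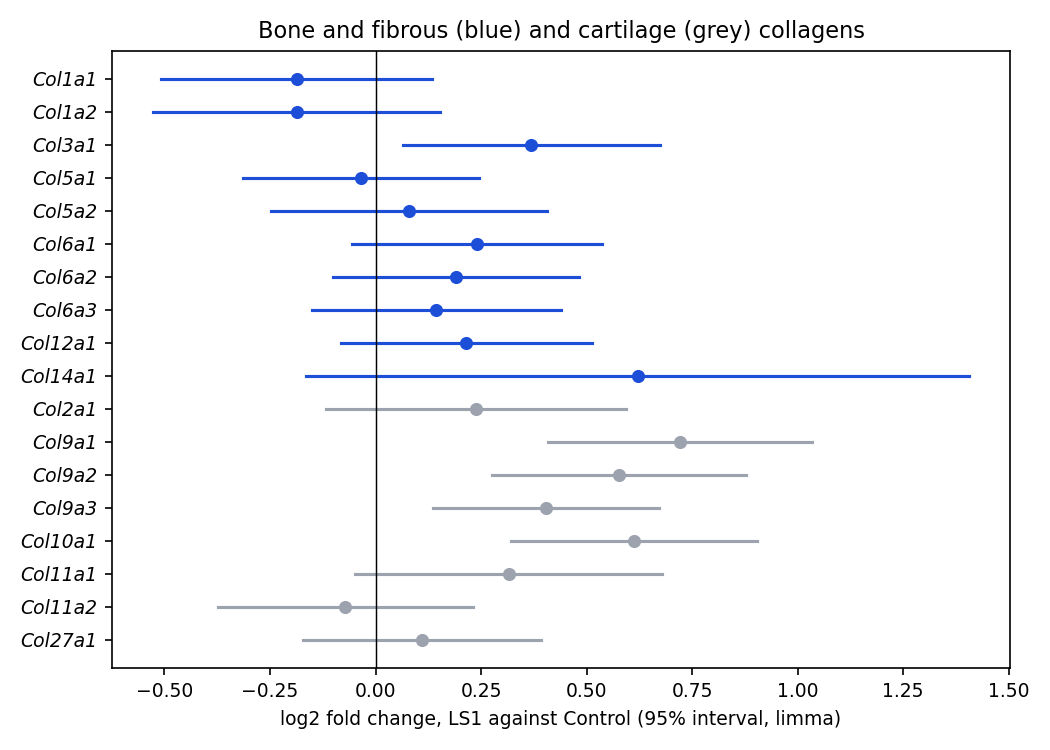
Log2 fold change of LS1 against Control from limma (x axis) with its 95% confidence interval, for the 10 bone and fibrous collagens in blue and the 8 cartilage collagens in grey. Among the blue points the interval lies above 0 only for *Col3a1* (0.066 to 0.67), and limma called none of the genes shown.

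The chains of type I collagen had lower means in LS1, by less than the test could tell from the spread between mice. *Col1a1* (ENSMUSG00000001506, chr11:94936224-94953042 of GRCm38) had 2016431, 2032518 and 2495226 normalized reads in Control and 1995102, 1778579 and 1953114 in LS1. All LS1 libraries lay below all Control libraries, but the nearest of them were only 1.06% apart. Its log2 fold change was -0.19 (SE 0.15, adjusted p = 0.616 from limma), with a 95% interval from -0.51 to 0.13. *Col1a2* (ENSMUSG00000029661, chr6:4504814-4541544) had 3058908, 3195053 and 3535391 in Control and 3063689, 2409343 and 3173945 in LS1. LS1 replicate 2 was the lowest library and the other LS1 libraries fell within the range of Control. Its log2 fold change was also -0.19 (SE 0.16, adjusted p = 0.640 from limma), which was -0.06 without LS1 replicate 2, and that of *Col1a1* was -0.09 without Control replicate 3. The ratio of *Col1a1* to *Col1a2* counts was 0.659, 0.636 and 0.706 in Control and 0.651, 0.738 and 0.615 in LS1, and overlapped between groups (log2 difference -0.00025, SE 0.089, exact permutation test, two-sided p = 1.0). Type I collagen took 7.05% ± 0.601 of the reads in Control (SD, n = 3) and 6.15% ± 0.636 in LS1.

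*Col3a1*, whose chain forms type III collagen, was the gene of the 10 with the smallest p-value. Its gene (ENSMUSG00000026043) lies at chr1:45311538-45349706. It had 156485, 135113 and 123394 normalized reads in Control and 176631, 188003 and 169434 in LS1. Every LS1 library was above every Control library, and the nearest were 8.27% apart. The means of 138331 ± 16779 and 178022 ± 9362 (SD, n = 3) gave a log2 fold change of 0.37 (SE 0.14), or 1.29-fold, with an adjusted p of 0.310 from limma. The estimate stayed between 0.29 and 0.46 over the alternatives run, and adjusted p-values ran from 0.168 to 0.612. The annotation places a microRNA gene on the same strand over 141 exonic bases of *Col3a1*, and its reads cannot be told from those of *Col3a1*.

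The type V chains, which nucleate fibrils, had the estimates nearest to 0 of the 10 genes. *Col5a1* (ENSMUSG00000026837, chr2:27886425-28039514) had 44312, 47982 and 52478 normalized reads in Control and 44931, 47950 and 48329 in LS1. All 3 LS1 libraries fell inside the Control range, with a log2 fold change of -0.03 (interval -0.31 to 0.25). *Col5a1* overlaps genes of the opposite strand over 99 and 113 exonic bases, and the sources do not state whether the counting used strand. *Col5a2* (ENSMUSG00000026042, chr1:45374321-45503282) had 189395, 170079 and 193035 in Control and 190653, 167959 and 228841 in LS1. LS1 replicate 3 was the highest library and LS1 replicate 2 the lowest. The log2 fold change was 0.08 (interval -0.25 to 0.41), so the neighbour of *Col3a1* on the chromosome had a smaller estimate than *Col3a1*, a difference that was not tested. The minor chain gene *Col5a3*, not among the 10, had a log2 fold change of -0.81 (SE 0.24, adjusted p = 0.247 from limma), with 3981, 3686 and 4017 normalized reads in Control and 1451, 2392 and 3161 in LS1.

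The type VI chains form the beaded filaments around chondrocytes and many connective tissue cells, and all 3 had positive estimates. *Col6a1* (ENSMUSG00000001119, chr10:76708792-76726168) had 42184, 48117 and 45994 normalized reads in Control and 54395, 59259 and 47678 in LS1. LS1 replicate 3 was inside the Control range, and the log2 fold change was 0.24 (interval -0.056 to 0.54, adjusted p = 0.480 from limma). *Col6a2* (ENSMUSG00000020241, chr10:76595762-76623630) had 26466, 28285 and 31967 in Control and 30648, 36047 and 32211 in LS1, a log2 fold change of 0.19 (interval -0.10 to 0.48). *Col6a3* (ENSMUSG00000048126, chr1:90765923-90843971) had 47093, 50320 and 49928 in Control and 53521, 48444 and 61525 in LS1, a log2 fold change of 0.14 (interval -0.15 to 0.44). In both genes 1 LS1 library lay within the Control range, replicate 1 for *Col6a2* and replicate 2 for *Col6a3*.

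The fibril-surface collagens differed in abundance and spread. *Col12a1* (ENSMUSG00000032332, chr9:79598991-79718831), found in tendon, periosteum and other loaded tissues, had 68944, 65126 and 66161 normalized reads in Control and 89265, 71760 and 72554 in LS1. No LS1 library overlapped Control, with the nearest 4.09% apart, and LS1 replicate 1 was highest. The log2 fold change was 0.22 (SE 0.14, adjusted p = 0.527 from limma), and it was 0.11 without LS1 replicate 1. *Col14a1* (ENSMUSG00000022371, chr15:55307750-55520803), typical of dense connective tissue, had 1846, 1947 and 1067 in Control and 3700, 2475 and 1524 in LS1. It had the largest estimate of the 10, a log2 fold change of 0.62, and the widest interval (-0.17 to 1.41). The estimate depended on single libraries, being 0.31 without LS1 replicate 1, 0.34 without Control replicate 3 and 0.95 without LS1 replicate 3. Its coefficient of variation was 29.7% in Control and 42.5% in LS1, while that of the other 9 genes lay between 2.96% and 15.7%.

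Ratios within a library do not depend on the size factor, and 4 were computed. *Col3a1* counts were 7.76%, 6.65% and 4.95% of *Col1a1* counts in Control, against 8.85%, 10.6% and 8.68% in LS1. The groups did not overlap, with a log2 difference of 0.56 (SE 0.21), or 1.47-fold. The exact two-sided permutation test gave p = 0.1, the smallest that 3 mice against 3 allow, and 0.2 after Benjamini-Hochberg adjustment over the 4 ratios. The summed type VI counts were 2.28%, 2.42% and 2.12% of the summed type I counts in Control and 2.74%, 3.43% and 2.76% in LS1. Here too the groups did not overlap, with a log2 difference of 0.38 (SE 0.12, exact permutation p = 0.1, 0.2 adjusted). Control replicate 3, with the most type I collagen, had the lowest of both ratios, and LS1 replicate 2, with the least, had the highest. Over the fits that dropped 1 library the differences stayed between 0.38 and 0.70 for *Col3a1* to *Col1a1* and between 0.27 and 0.44 for type VI to type I.

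**Figure D3:**
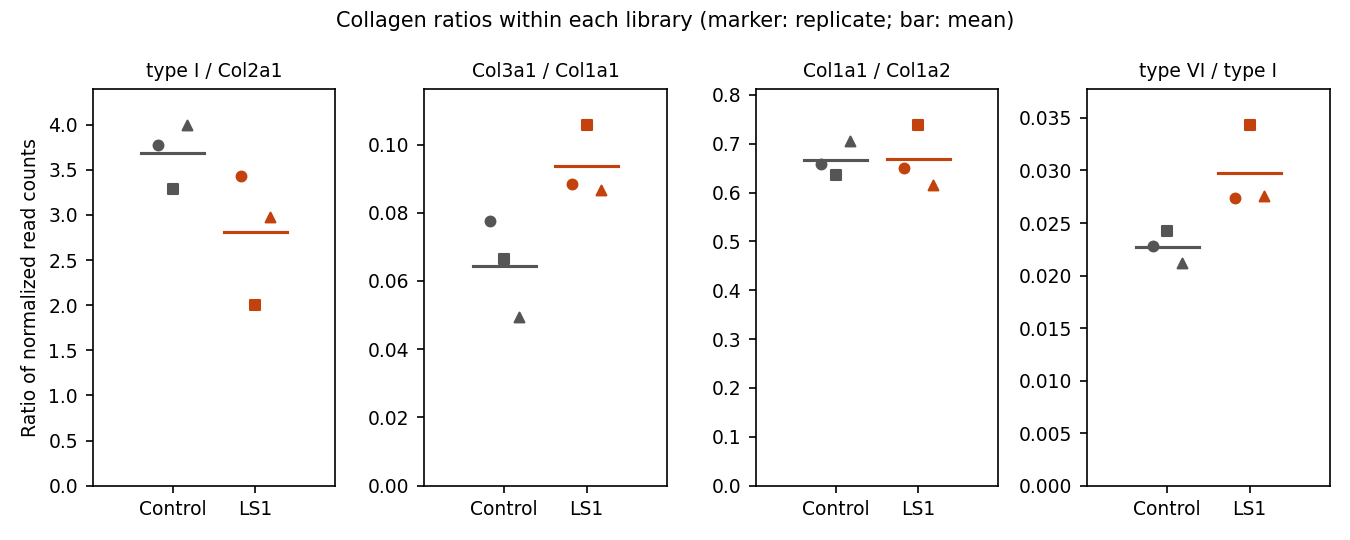
Ratio of normalized read counts within each library (y axis, starting at 0), in Control and LS1, with a bar at each mean. *Col3a1* to *Col1a1* and type VI to type I are higher in all 3 LS1 libraries than in all Control libraries, while *Col1a1* to *Col1a2* overlaps.

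The balance of type I and type II collagen was compared in the same way. Summed type I counts were 3.78, 3.29 and 3.996 times those of *Col2a1* in Control and 3.44, 2.01 and 2.98 times in LS1. LS1 replicate 1 lay within the Control range. The log2 difference was -0.42 (SE 0.25, exact permutation p = 0.2, 0.267 adjusted), and it was -0.20 without LS1 replicate 2, so that this library carried much of it. *Col2a1* itself had a log2 fold change of 0.24 (adjusted p = 0.557 from limma). *Col10a1*, the collagen of hypertrophic cartilage, had 315844, 372943 and 340963 normalized reads in Control and 533299, 504434 and 533263 in LS1, a log2 fold change of 0.61 (adjusted p = 0.158 from limma). Of the 8 cartilage collagens, limma and edgeR called 0 and DESeq2 called 3 (*Col9a1*, *Col10a1* and, named after seeing its values, *Col9a2*). At an unadjusted p of 0.05 limma passed 4, each higher in LS1, and the median of the 8 was 0.36. The summed level of the 8 lay between 2513849 and 2898698 in Control and between 3173091 and 3695517 in LS1, without overlap. *Col9a1*, a chain of the collagen on type II fibrils, had the largest estimate (0.72).

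**Figure D4:**
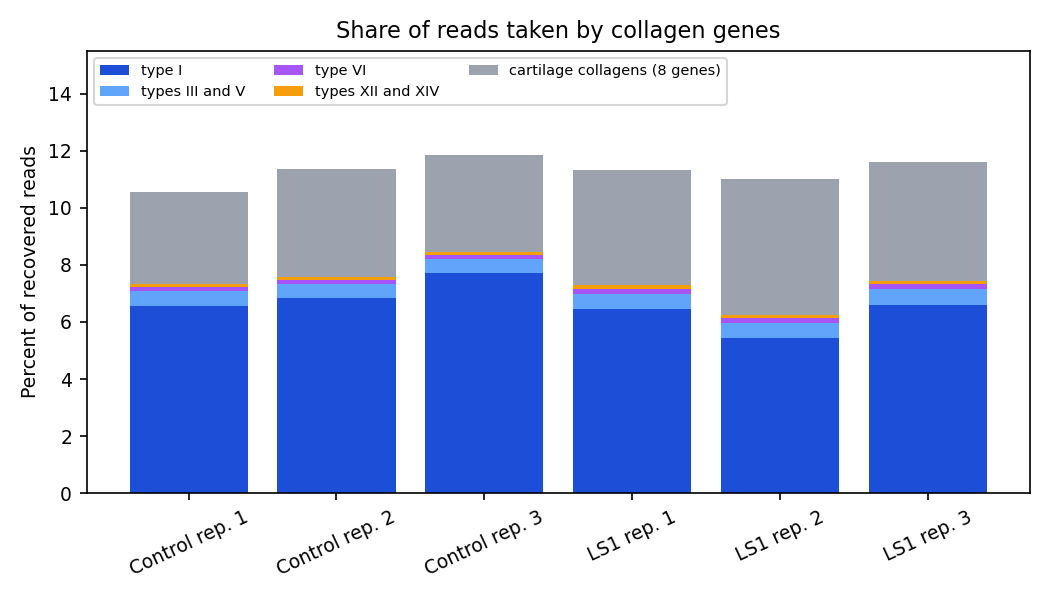
Percent of recovered reads (y axis) taken in each library by type I, by types III and V, by type VI, by types XII and XIV and by the 8 cartilage collagens. Together the 10 bone and fibrous collagens took 6.23% to 8.44% of the reads, least in LS1 replicate 2 and most in Control replicate 3.

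Markers of cell types that make these collagens were listed beside them, and edgeR called 0 genes in each of these lists. Of 10 osteoblast and osteocyte markers, limma called 0 and passed 1 at an unadjusted p of 0.05, with a median log2 fold change of 0.049. Their summed level overlapped between groups, running from 700797 to 832974 in Control and from 723374 to 1003560 in LS1. *Spp1*, with the most normalized reads of the list, had a log2 fold change of 0.12. *Bglap*, the gene of osteocalcin, is named after seeing its values, since DESeq2 called it and no other gene of the list. Its log2 fold change was -1.10 (adjusted p = 0.350 from limma), and its reads can be shared with near-identical copies. *Bglap2*, a copy in the same list also named after seeing its values, had one of -1.18 (adjusted p = 0.483 from limma), with overlapping groups. Of the 10 markers, 6 had estimates above 0 and 4 below.

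Of 10 tendon and fibroblast markers, limma called 0 and passed 2 at an unadjusted p of 0.05, with a median of 0.37. Their summed level lay between 24057 and 25666 in Control and between 27154 and 33988 in LS1, without overlap. *Pdgfra*, a receptor of mesenchymal cells and the gene with the most normalized reads in that list, had a log2 fold change of -0.14. DESeq2 called 1 gene of the list, *Tnmd*, a tendon gene picked out once its values were known, which had a log2 fold change of 1.24 and an adjusted p of 0.198 from limma. The part of tendon and fibroblast tissue in the values of *Col3a1*, *Col12a1* and *Col14a1* was not tested.

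Chondrocytes, the cells of cartilage, were followed by 8 markers. Of these limma called 0 and DESeq2 4, and limma passed 6 at an unadjusted p of 0.05, each of them higher, with a median of 0.53. Their summed level lay between 430287 and 486000 in Control and between 639057 and 786567 in LS1, without overlap, and *Acan*, the aggrecan core protein, had a log2 fold change of 0.50. Their part in the values of type VI, a collagen that chondrocytes also make, was not tested.

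The other cell types showed no separation of summed levels between groups. Of 9 tested skeletal muscle markers, limma and DESeq2 called 0 and limma passed 1 at an unadjusted p of 0.05, with all estimates negative (median -0.68, *Acta1* -0.76). Endothelial markers had a median of 0.093 (*Pecam1* -0.11, 1 of 5 at an unadjusted p of 0.05), macrophage markers one of 0.39 (*Csf1r* 0.087, 2 of 6) and neutrophil markers one of 0.31 (*S100a8* 0.31, 2 of 7). Erythroid markers had a median of -0.51 (*Slc4a1* -0.52, 3 of 6) and B cell markers one of -0.66 (*Cd79a* 0.0067, 3 of 5). In these lists limma called 0 genes, while among the macrophage markers DESeq2 called 1 (*Mpeg1*, named after seeing its values).

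Genes that carry these collagens through processing, assembly and reception were also counted, and edgeR again called 0 in each list. Of 20 genes for procollagen processing and fibril assembly, limma called 0 and DESeq2 2 (*Tll1* and, named after seeing its values, *Pcolce2*). At an unadjusted p of 0.05 limma passed 4, each higher in LS1, with a median of 0.092 over the list. *Tll1*, a procollagen C-proteinase of the tolloid family, had the largest estimate (1.03, SE 0.25, adjusted p = 0.194 from limma), from 155, 116 and 104 normalized reads in Control to 270, 231 and 258 in LS1. *Thbs2*, a matricellular thrombospondin of connective tissue, had one of 0.54 (adjusted p = 0.255 from limma).

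Of 25 tested collagen chains outside both groups, limma called 0 and DESeq2 1, and limma passed 3 at an unadjusted p of 0.05, with a median of 0.021. Besides *Col5a3* these were *Col4a5*, a basement membrane chain (0.73) and the gene that DESeq2 called, and *Col16a1*, a fibril-associated chain (0.72). Of 12 collagen receptors and uptake genes, limma called 0 and DESeq2 2 (*Itga1* and, named after seeing its values, *Lair1*), and limma passed 3 at an unadjusted p of 0.05, with a median of 0.20. *Itga1*, the collagen-binding integrin subunit, had a log2 fold change of 0.66 (SE 0.16, adjusted p = 0.194 from limma), and *Itgb1*, its partner, one of 0.25. *Gp6*, the collagen receptor of platelets, had one of -0.59, and *Mrc2*, the endocytic receptor that takes up collagen for degradation, one of -0.23 (adjusted p = 0.504 from limma).

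*Mrc2* was also the gene whose level followed type I collagen most closely. Among 9660 other genes with a mean of at least 1000 normalized reads, the Pearson correlation with summed *Col1a1* and *Col1a2*, on the log2 scale over 6 libraries, was highest for *Mrc2* (r = 0.991). *Mrc2* had 21768, 22260 and 25581 normalized reads in Control and 21126, 17450 and 20968 in LS1, where the summed type I counts were 5075339, 5227571 and 6030617 and 5058791, 4187922 and 5127059. The next in order were *Rps2-ps10*, a ribosomal protein pseudogene whose reads can come from its parent (0.987), *Rex1bd* (0.984), *Ppp4c*, a phosphatase subunit (0.983), and *Mrpl42*, a mitochondrial ribosomal protein (0.980). These correlations rest largely on Control replicate 3 and LS1 replicate 2, the libraries with the most and the least type I collagen. Over the other 4 libraries the correlation was 0.644 for *Mrc2*, 0.232 for *Rps2-ps10*, 0.755 for *Rex1bd*, 0.822 for *Ppp4c* and -0.58 for *Mrpl42*. Among the collagens, *Col3a1* ran against type I (r = -0.85 over 6 libraries and -0.84 over those 4), and *Col6a1* had an r of -0.69 that was -0.071 over the 4. All values of a library share its size factor, and genes were chosen here for their likeness, so these figures are descriptive.

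**Figure D5:**
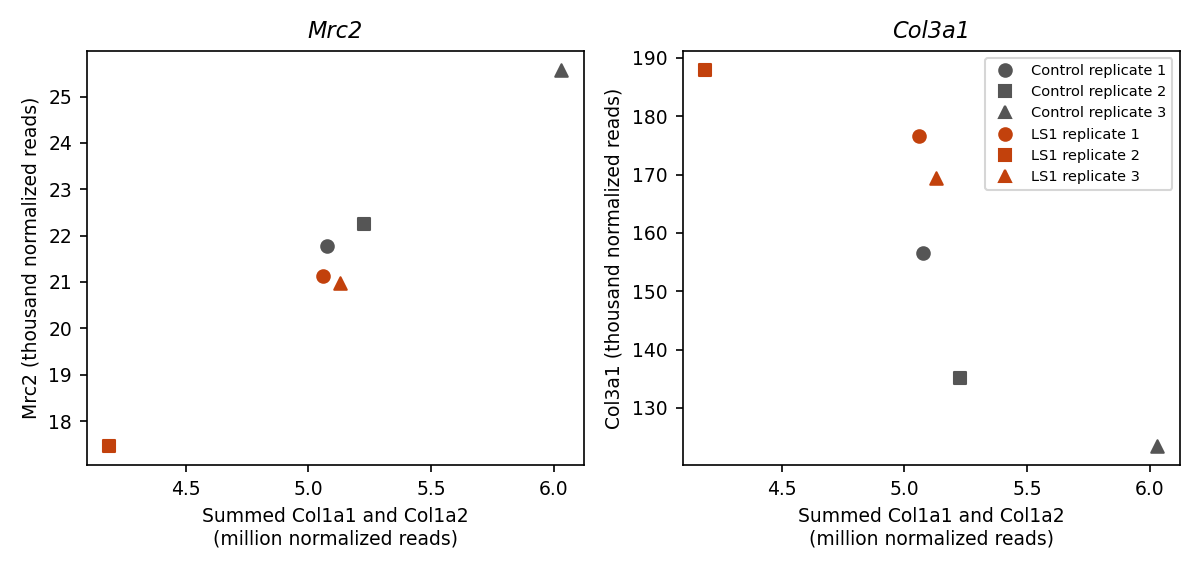
Normalized reads of *Mrc2* (left) and *Col3a1* (right) against the summed normalized reads of *Col1a1* and *Col1a2* (x axis), with 1 point per library. *Mrc2* is highest in Control replicate 3 (25581) and lowest in LS1 replicate 2 (17450), and *Col3a1* has the opposite order, with 123394 and 188003.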

How the data were processed

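Paired-end SOLiD reads of polyadenylated RNA were mapped by the authors with HISAT2 2.0.2 (GRCm38, Ensembl release 84). Counting per gene used featureCounts 1.4.6, and the size factors are those of DESeq2. The deposited values are a signal per gene, the read count divided by 1 size factor per library. Reads were recovered by dividing by the value of 1 read (0.870 to 1.11), and 100% of values came out whole within 0.01. In Control replicate 1 this value (1.009) is near 1, although its deposited values are not rounded to whole numbers. edgeR was also run without that library, a choice made after seeing the data. GENCODE M21, a GRCm38 annotation, gave names, coordinates and transcripts (99.1% of identifiers had a symbol).

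Groups came from the strain label. The deposited values, as log2(value + 1), were fitted with limma 3.58.1 (R 4.3.3), using a mean-variance trend and robust moderation. Genes whose recovered reads averaged at least 20 per library were tested (19308), with Benjamini-Hochberg adjustment. Fold changes on this scale understate those of low genes. edgeR 4.0.16, DESeq2 1.42.0, limma-voom, other scalings, filters and pseudocounts, a replicate block and each library left out were alternatives. Scripts were tested on simulated data. The collagen genes and gene lists were chosen with earlier results of these data known. The rule for named genes took the 10 collagens, *Col2a1* and *Col10a1*, up to 2 genes per direction with groups that do not overlap from each pathway list, the marker of each cell type with the most normalized reads and the 5 genes most like type I collagen. Genes named after seeing their values are marked as such.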

Additional observations from a re-analysis of the deposited data

How the results depend on the processing

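Under all 18 alternatives, limma, edgeR, DESeq2 and voom called 0 of the 10 collagen genes. Their estimates kept their sign throughout except in 2 genes. With a library left out, that of *Col5a1* ran from -0.093 to 0.029, the latter without Control replicate 3, and that of *Col5a2* from -0.039, without LS1 replicate 3, to 0.18. The difference in the ratio of *Col1a1* to *Col1a2* (-0.00025) ran from -0.074 to 0.057 with a library left out and was above 0 without Control replicate 3 (0.041), LS1 replicate 1 (0.016) and LS1 replicate 3 (0.057). The other 3 ratios kept their direction. The number of genes called over the whole table was 14 with limma, 7 with edgeR, 459 with DESeq2, 8 with voom, 45 with no filter beyond 1 read, 9 with a mean of at least 100 reads and 7 without robust moderation. It ran from 5 to 324 with a library left out, the highest without LS1 replicate 3, and was 5 with edgeR without Control replicate 1. The causes were not tested.

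The titles share the letters A, B and C between groups. Deviations from the group mean of same-letter libraries had correlations of 0.054, 0.021 and 0.224, and 2 of the 6 libraries correlated best with their own letter, so the letters were not taken to pair the samples. The labels do not say what the letters stand for, and whether they mark a family or a batch was not tested. The replicate block gave 12 genes called, 0 of them among the 10 collagens. It did lower unadjusted limma p-values, to 0.0038 for *Col14a1* (0.107 without the block) and 0.0096 for *Col3a1* (0.021 without it). Their adjusted p-values from limma with the block were 0.138 and 0.168. These 2 of the 10 passed an unadjusted p of 0.05 with the block. Over all genes tested 3377 passed it, against 2499 without the block. Depth does not limit the abundant genes, but with 3 mice per group even the narrowest 95% interval of the 10, that of *Col5a1*, ran from -0.31 to 0.25 (log2).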
